A study of Homo sapiens with 12 samples.

Results

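The genes described here are the 34 genes of cholesterol and fatty acid synthesis and of its control by the sterol regulatory element-binding proteins (SREBPs) that were looked up by symbol among the 58347 genes counted in each sample. They were listed by what they encode and not by how they changed, although earlier results of these data were known when the list was made. They comprise 8 genes of the mevalonate pathway, 11 of the steps from squalene to cholesterol, 5 of SREBP control, 2 of sterol handling and 8 of fatty acid synthesis. All 34 passed the filter on low counts that kept 16740 genes for testing.

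The study sequenced polyadenylated RNA of A375, an established human melanoma cell line with a mutant BRAF kinase, to look into how a pair of drugs acts on it. The 12 samples form 4 groups of 3, named DMSO, Tretinoin, Vemurafenib and Combination, all harvested after 8 h, and the labels put the dose at 5 µM in all 4 groups, even that of the DMSO vehicle. Vemurafenib inhibits mutant BRAF, tretinoin (all-trans retinoic acid) activates the retinoic acid receptors, and the Combination group received both. Every group is the same single cell line, so the values describe A375 alone, and the sources used here state triplicate drug application without saying that the replicates came from separate cultures, so p-values measure only the spread between these samples.

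Cells make cholesterol from acetyl-CoA through mevalonate, isoprenoid diphosphates and squalene, and make fatty acids from the same precursor through malonyl-CoA. Both routes are switched on by SREBPs, membrane-bound transcription factors that the escort protein SCAP carries out of the endoplasmic reticulum when sterols are scarce and that the INSIG proteins hold back when sterols are plentiful. Tumour cells, melanoma included, are known for depending on their own lipid synthesis, and growth factor signalling is a known driver of SREBP activity.

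The promoters of 6 genes are shown first because these genes carry the contrasts described further on: SREBF1 and SREBF2, the paired SREBP genes, of which SREBF1 passed the test against DMSO with each treatment and SREBF2 with none, HMGCS1, which was lowest under the combination, and MVK, MVD and MYLIP, which were lower with tretinoin and higher with vemurafenib. Each run is a RefSeq promoter of build GRCh38.p14, from 250 bases before to 50 bases after the annotated start, written 5′ to 3′ on the strand of the gene. Capitals mark matches on either strand to 3 motifs, and neighbouring matches may run together. The first is the SREBP element core, spelled TCACNCCAC. Another is the CCAAT box, which bears its own letters as a name and reads ATTGG when it lies on the opposite strand. The last is the GC box, spelled GGGCGG, whose form on the opposite strand is CCGCCC.
SREBF1, chr17:17836937-17837236, minus strand: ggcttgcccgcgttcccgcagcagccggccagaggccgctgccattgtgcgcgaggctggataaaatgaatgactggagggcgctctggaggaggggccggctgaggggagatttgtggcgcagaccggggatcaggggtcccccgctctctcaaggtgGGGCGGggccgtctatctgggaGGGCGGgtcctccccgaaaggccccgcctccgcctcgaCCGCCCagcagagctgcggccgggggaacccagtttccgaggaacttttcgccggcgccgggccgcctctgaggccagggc
SREBF2, chr22:41832855-41833154, plus strand: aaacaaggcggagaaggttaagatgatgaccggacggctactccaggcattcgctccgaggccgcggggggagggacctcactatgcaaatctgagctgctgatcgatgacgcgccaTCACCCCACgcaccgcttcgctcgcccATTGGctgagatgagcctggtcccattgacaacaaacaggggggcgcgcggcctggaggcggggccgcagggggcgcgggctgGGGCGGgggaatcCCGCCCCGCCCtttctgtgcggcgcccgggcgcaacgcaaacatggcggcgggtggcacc
HMGCS1, chr5:43313363-43313662, minus strand: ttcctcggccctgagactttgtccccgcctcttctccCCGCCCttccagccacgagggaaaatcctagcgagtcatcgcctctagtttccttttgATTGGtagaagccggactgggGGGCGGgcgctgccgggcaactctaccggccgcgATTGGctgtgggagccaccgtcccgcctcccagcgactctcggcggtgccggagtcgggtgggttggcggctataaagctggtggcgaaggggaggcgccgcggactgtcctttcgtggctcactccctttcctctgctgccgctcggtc
MVK, chr12:109573544-109573843, plus strand: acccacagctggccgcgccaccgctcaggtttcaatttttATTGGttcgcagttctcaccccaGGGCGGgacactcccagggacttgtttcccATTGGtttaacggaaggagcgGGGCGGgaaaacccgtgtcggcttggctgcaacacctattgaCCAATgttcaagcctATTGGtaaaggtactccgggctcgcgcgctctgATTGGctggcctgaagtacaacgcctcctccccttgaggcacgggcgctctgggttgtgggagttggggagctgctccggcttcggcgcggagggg
MVD, chr16:88663042-88663341, minus strand: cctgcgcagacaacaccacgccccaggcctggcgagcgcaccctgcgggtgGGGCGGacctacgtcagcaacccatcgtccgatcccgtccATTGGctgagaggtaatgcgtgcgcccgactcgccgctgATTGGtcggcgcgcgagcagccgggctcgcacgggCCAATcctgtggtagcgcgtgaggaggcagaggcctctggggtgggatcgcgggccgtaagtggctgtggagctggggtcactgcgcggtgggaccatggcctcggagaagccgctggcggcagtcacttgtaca
MYLIP, chr6:16128836-16129135, plus strand: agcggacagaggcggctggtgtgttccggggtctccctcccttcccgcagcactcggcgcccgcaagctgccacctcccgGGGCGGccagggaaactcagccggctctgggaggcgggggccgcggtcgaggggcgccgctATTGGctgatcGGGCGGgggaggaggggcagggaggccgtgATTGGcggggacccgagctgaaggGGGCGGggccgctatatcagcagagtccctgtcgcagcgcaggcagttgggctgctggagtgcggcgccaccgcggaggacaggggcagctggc

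The RefSeq table held 43 promoter windows for 30 of the 34 genes, with no entry for ACAT2, FASN, FDFT1 or SQLE, and overlapping windows of 1 gene share sequence. A CCAAT box was found in 27 of the 43 windows, which is 62.8% against 34.6% of all 35116 windows of the same length. A GC box was found in 38 windows, 88.4% against 45.0% of all. The SREBP element core was found in 1 window, that of SREBF2, where TCACCCCAC lies at position -133 from the start. That is 2.33% of the windows against 1.13% of all. The E-box CACGTG was found in 5 windows, 11.6% against 7.26% of all, and the nuclear receptor motif AGGTCA in 3 windows, 6.98% against 13.8%. Among the promoters printed, that of SREBF1 holds GC boxes but no CCAAT box, whereas those of HMGCS1, MVK, MVD and MYLIP hold both. Another RefSeq window of HMGCS1, not printed, holds GC boxes but no CCAAT box. These matches describe letters within the windows and not binding.

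Total counts ran from 13510235 to 21534377 per sample, and levels are given as CPM, which scale counts to the library size adjusted by edgeR's trimmed mean of M-values (TMM). Counts of replicates differed by more than sampling noise in every pair, with a chi-square per degree of freedom of 2.56 to 21.8, so no sample repeated another. Tretinoin replicate 1 stood apart, at 19.1 and 21.8 from the other replicates of its group, which differed from each other by 2.56. As checks of the treatments, 10 of 10 listed targets of ERK signalling fell with vemurafenib (median log2 fold change -3.02), and 4 of 7 tested retinoid target genes rose with tretinoin, among them DHRS3 by 2.91. Melanocyte markers were scarce: SOX10 had no count in any sample, TYR at most 1, MLANA 1 to 19 and MITF 245 to 658. The 8 melanocyte markers summed to 23.3 to 28.0 CPM in the DMSO and Tretinoin samples and to 41.5 to 48.7 CPM in the Vemurafenib and Combination samples. The 7 markers of other cell types (keratinocytes, epithelium, blood, endothelium, liver) summed by the same measure to 13.0 to 18.1 without vemurafenib and 31.9 to 43.0 with it, mostly KRT14. TMM factors were 0.901 to 1.01 without vemurafenib and 1.03 to 1.07 with it, so TMM scaling would narrow both gaps. ALB and CD3E had 0 counts in some samples and at most 9. PTPRC, a leukocyte marker, had 13 to 26 counts with DMSO and 37 to 83 in the treated samples. The part of these markers in the results was not tested, and in bulk RNA fewer cells of a kind and less RNA per cell cannot be told apart.

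In vehicle-treated cells 2 fatty acid genes had the highest levels of the 34 per length, while others of that role, such as FADS2 at 2.25 CPM per kb, were near the low end. FASN, the fatty acid synthase that joins malonyl-CoA units, led with 64.8 ± 2.1 CPM per kb of exon (SD, n = 3), followed by ACLY, which makes cytosolic acetyl-CoA from citrate, with 54.5 ± 2.38 CPM per kb. The kinase PMVK, the desaturase SCD and the sterol isomerase EBP came next, at 43.9 ± 4.81, 41.4 ± 1.99 and 39.4 ± 3.85 CPM per kb, and these 3 did not differ beyond their spread. The other genes ranged down to 0.739 ± 0.158 CPM per kb for CYP51A1, the lanosterol demethylase. At the low end CYP51A1, STARD4 and TM7SF2 lay within their spread of each other, from 0.739 to 0.852 CPM per kb. The counting left out fragments that fell on exons of more than 1 gene, regardless of strand. Exons of other genes cover 83.2% of the exon bases of CYP51A1, 52.3% of ACAT2 and 41.0% of GGPS1, so the levels of these genes are uncertain. Nearly identical stretches (98% or more over 150 bases or more) are also shared by CYP51A1 with CYP51A1P2, by HSD17B7 with HSD17B7P2 and by FADS1 with 11 other genes.

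**Figure D1:**
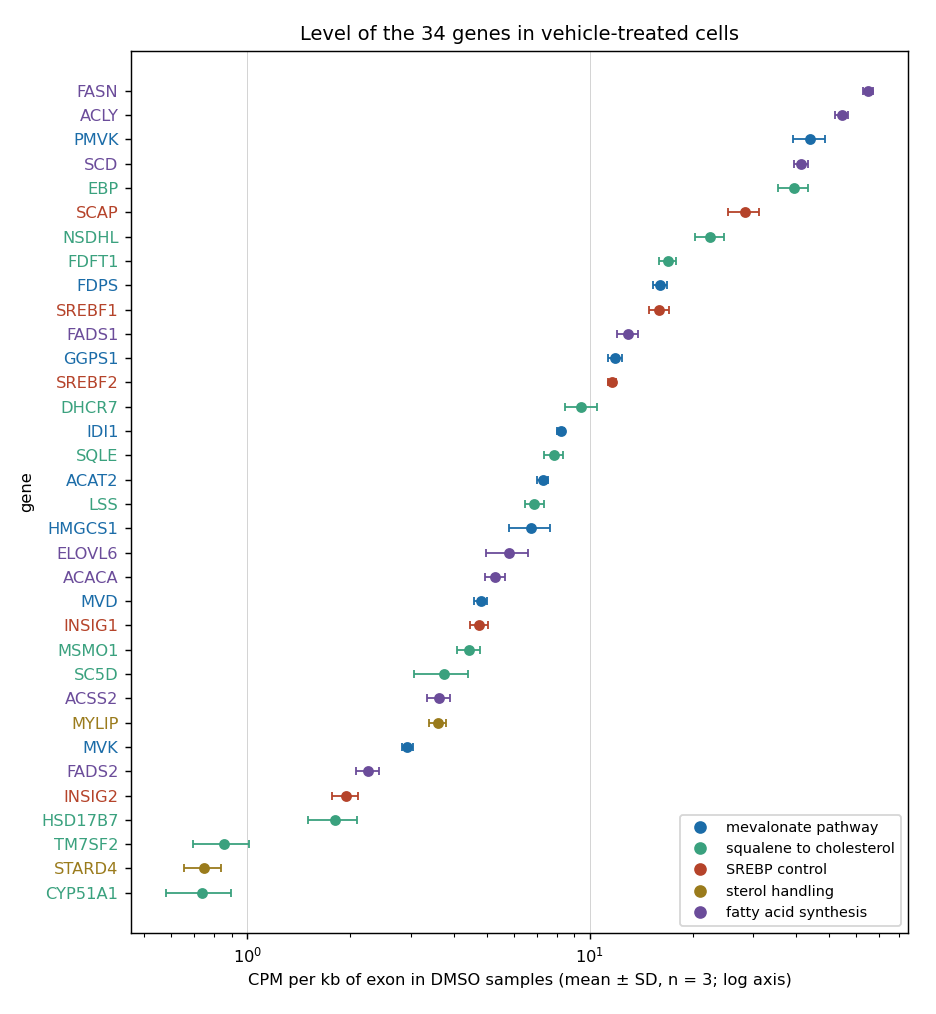
Level of each of the 34 genes in the DMSO samples, as CPM per kb of exon on a log axis (points, mean of 3 samples; bars, SD), coloured by role. The levels span from 0.739 for CYP51A1 to 64.8 for FASN, and genes of every role except sterol handling are among the 6 highest.

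SREBF1 (ENSG00000072310.16, GRCh38 chr17:17810399-17837002, minus strand), which encodes the SREBP known mainly for fatty acid genes, was the member with the largest rise under vemurafenib. It stood at 136, 119 and 129.7 CPM in the 3 DMSO samples, at 179, 158 and 153 CPM with tretinoin, at 235, 234.5 and 244 CPM with vemurafenib, and at 255, 265 and 263 CPM with the combination. The 4 groups did not overlap and ran upward in that order. Its log2 fold change against DMSO was 0.35 with tretinoin (SE 0.072, adjusted p = 0.0077 in edgeR's quasi-likelihood test, adjusted by Benjamini-Hochberg). It was 0.89 with vemurafenib (SE 0.072, adjusted p = 1.5e-08). Under the combination it reached 1.03 (SE 0.072, adjusted p = 2.3e-09), a 2.04-fold level. The combination was 0.14 above vemurafenib alone (SE 0.071, adjusted p = 0.42), which did not pass the threshold of 0.05. Of its exon bases 6.92% overlap RAI1 on the other strand.

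SREBF2 (ENSG00000198911.11, chr22:41833079-41907308, plus strand), the SREBP known mainly for sterol genes, did not pass in any comparison. It measured 85.0, 89.2 and 89.2 CPM with DMSO, 91.9, 74.5 and 72.4 CPM with tretinoin, 93.6, 92.8 and 92.0 CPM with vemurafenib, and 83.1, 86.1 and 92.8 CPM with the combination. The 3 Vemurafenib samples, Tretinoin replicate 1 and Combination replicate 3 lay above all DMSO samples, and Tretinoin replicates 2 and 3 lay below all of them. Its log2 fold change with vemurafenib was 0.08 (SE 0.081), against 0.89 for SREBF1. With tretinoin it was -0.14 (SE 0.081, adjusted p = 0.3), and without Tretinoin replicate 1 it was -0.26 (SE 0.0652, adjusted p = 0.018).

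SCAP, the escort of both SREBPs, had 168, 204 and 175 CPM with DMSO, 172, 164 and 165 CPM with tretinoin, 145, 160.2 and 164 CPM with vemurafenib, and 151, 159.5 and 164 CPM with the combination. The Vemurafenib and Combination samples all lay below the DMSO samples, by 0.22 (SE 0.076, adjusted p = 0.023) and 0.20 (SE 0.076, adjusted p = 0.032) on the log2 scale. Without DMSO replicate 2, the highest sample, neither call was kept, at -0.13 and -0.12. With library totals as the only scaling, the values were -0.02 and -0.04.

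The INSIG genes, whose proteins retain SCAP in the endoplasmic reticulum, were called with different drugs, INSIG1 with tretinoin and INSIG2 with vemurafenib. INSIG1 (ENSG00000186480.12, chr7:155297776-155310235, plus strand), itself a known SREBP target, had 16.8, 18.6 and 16.8 CPM with DMSO, 14.5, 13.2 and 11.2 CPM with tretinoin, 16.4, 20.6 and 16.8 CPM with vemurafenib, and 15.5, 14.6 and 14.2 CPM with the combination. All Tretinoin samples lay below all DMSO samples, and INSIG1 fell by 0.43 on the log2 scale (SE 0.114, adjusted p = 0.036). The call was kept in 1 of the 6 fits that left out a Tretinoin or DMSO sample. It was lost with library totals as the only scaling and with only the groups compared. The Vemurafenib samples overlapped the DMSO samples. INSIG2 (ENSG00000125629.14, chr2:118088452-118110997, plus strand) had 6.90, 7.90 and 8.18 CPM with DMSO, 7.33, 7.79 and 7.94 CPM with tretinoin, 9.82, 12.3 and 10.8 CPM with vemurafenib, and 10.3, 10.8 and 11.1 CPM with the combination. Both vemurafenib-containing groups lay above all other samples, with log2 fold changes against DMSO of 0.51 (SE 0.115, adjusted p = 0.0011) and 0.48 (SE 0.114, adjusted p = 0.0017), while that of tretinoin was 0.01 (SE 0.121). The INSIG2 calls with vemurafenib and with the combination were kept in every alternative.

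**Figure D2:**
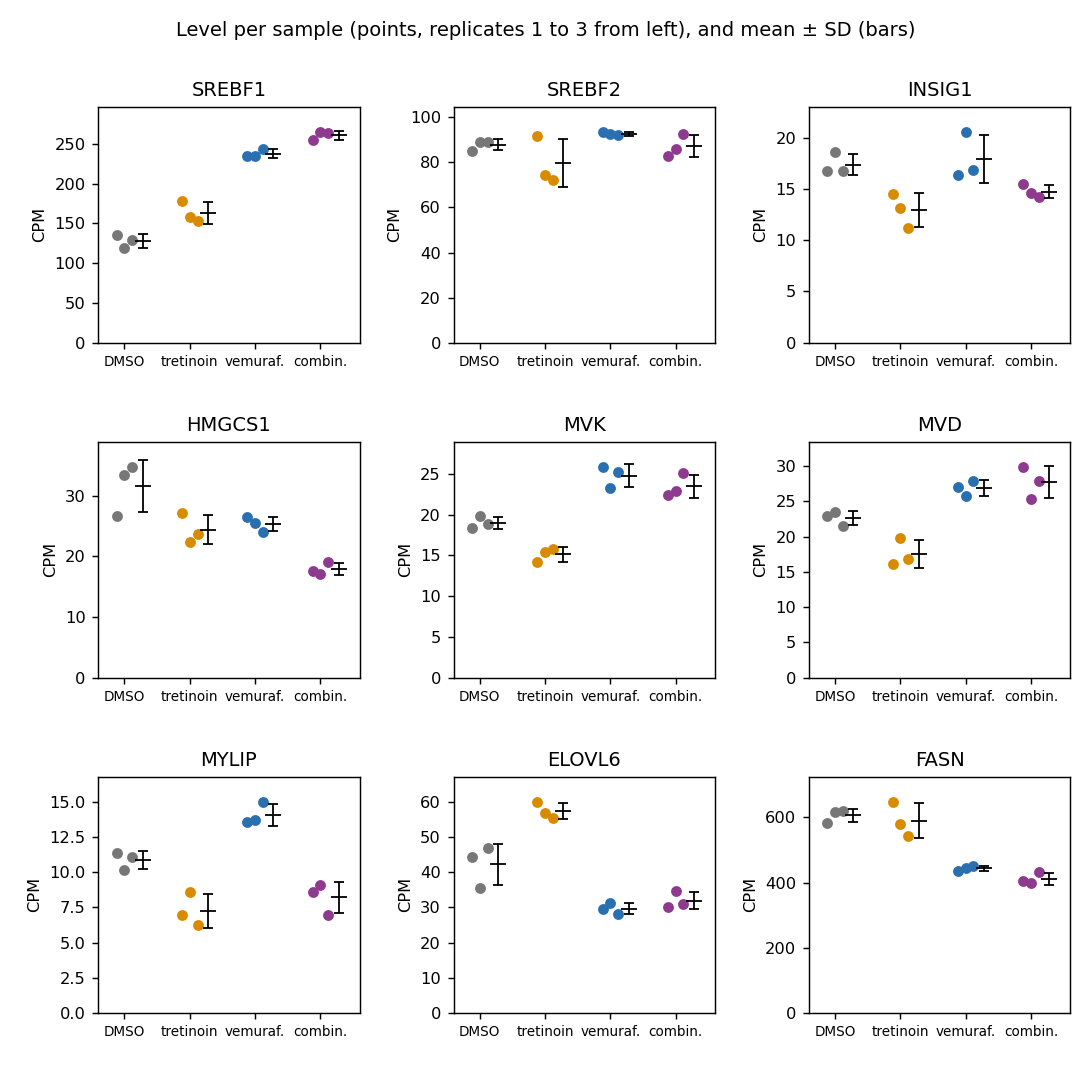
CPM of 9 genes in each of the 12 samples (points, replicates 1 to 3 from left to right, with axes from 0; bars, mean ± SD of 3). SREBF1 climbs from 128 CPM on average with DMSO to 261 CPM with the combination, SREBF2 stays between 72.4 and 93.6 CPM, and MVK, MVD and MYLIP lie below the DMSO samples with tretinoin and above them with vemurafenib.

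Tretinoin against DMSO asks what the retinoid does alone. Of the 34 genes 2 rose, SREBF1 and ELOVL6, against 3.48% of all genes tested, and 6 fell, HMGCS1, MVK, MVD, LSS, INSIG1 and MYLIP, against 2.2% of all. The median log2 fold change of the 34 genes was -0.14, against 0.01 over all genes tested. Without Tretinoin replicate 1, which stood apart, 2 rose and 5 fell, against 3.06% and 2.06% of all genes. SREBF2 was then called, and MVK and MVD were not. These calls were fragile. With only the 6 samples of both groups in the fit none of the 8 was called. In that fit 1.54% of all genes rose and 0.468% fell. Without DMSO replicate 1, 2 or 3 only 1 gene fell, against 1.47%, 0.616% and 1.28% of all genes. Without DMSO replicate 2 none rose, against 1.59% of all genes. With library totals as the only scaling, 3 rose and 1 fell, against 4.53% and 1.04% of all genes.

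All 8 mevalonate genes had negative log2 fold changes with tretinoin, from -0.51 to -0.07, and 3 of them fell. Of all 16740 genes tested 8052 were negative, and 2.2% were called lower. Library totals as the only scaling shifted the median of all genes by 0.071, about the size of the smallest of these 8 values. HMGCS1 (ENSG00000112972.14, chr5:43289395-43313512, minus strand) encodes the synthase that makes HMG-CoA, the precursor of mevalonate. It had 26.7, 33.4 and 34.8 CPM with DMSO, 27.1, 22.4 and 23.8 CPM with tretinoin, 26.5, 25.4 and 24.1 CPM with vemurafenib, and 17.7, 17.1 and 19.1 CPM with the combination. The first DMSO replicate was low and overlapped the Tretinoin samples, and the Combination samples lay below every other sample. On the log2 scale HMGCS1 fell by 0.38 (SE 0.102, adjusted p = 0.038) under tretinoin and by 0.32 (SE 0.101, adjusted p = 0.013) under vemurafenib. The vemurafenib call of HMGCS1 was lost without DMSO replicate 3 and with library totals as the only scaling. With the combination the value was -0.82 (SE 0.103, adjusted p = 3.3e-06), and 15.0% of its exon bases overlap a gene on the other strand. MVK, the mevalonate kinase, and MVD, the mevalonate diphosphate decarboxylase, fell by 0.32 (SE 0.089, adjusted p = 0.041) and 0.36 (SE 0.096, adjusted p = 0.034) with tretinoin. Of the 6 fits that left out a Tretinoin or DMSO sample, 1 kept the tretinoin call of MVK, 1 that of MVD and 2 that of HMGCS1. PMVK acts between MVK and MVD and was picked out after its values were seen. It had 26.3, 45.0 and 46.4 CPM with tretinoin against 50.9 to 63.0 CPM with DMSO. Its log2 fold change of -0.51 (SE 0.147, adjusted p = 0.053) rested in part on Tretinoin replicate 1, without which it was -0.30 (SE 0.0904, adjusted p = 0.059).

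Of the 11 genes from squalene to cholesterol only LSS, the lanosterol synthase, passed with tretinoin, at -0.31 (SE 0.079, adjusted p = 0.03), and their median was -0.14. The LSS call was kept in 2 of the 6 fits that left out a Tretinoin or DMSO sample. Adding up the 19 enzymes of both sterol blocks gave 682, 739 and 677 CPM with DMSO, 585, 623 and 628 CPM with tretinoin, 689, 685 and 686 CPM with vemurafenib, and 660, 653 and 669 CPM with the combination. The Tretinoin and Combination sums lay below all DMSO sums, and the Vemurafenib sums lay within the range of the DMSO sums. The genes with the highest CPM in these sums were EBP and FDFT1, at 94.8 and 87.7 CPM on average with DMSO.

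MYLIP (ENSG00000007944.14, chr6:16129125-16148248, plus strand) encodes a ubiquitin ligase that marks lipoprotein receptors for degradation and is a known target gene of the oxysterol receptors LXR. It had 11.4, 10.2 and 11.1 CPM with DMSO, 6.96, 8.6 and 6.24 CPM with tretinoin, 13.6, 13.8 and 15.0 CPM with vemurafenib, and 8.58, 9.11 and 6.97 CPM with the combination. Tretinoin samples and Combination samples all lay below the DMSO samples and Vemurafenib samples above them. Tretinoin gave a log2 fold change of -0.58 (SE 0.134, adjusted p = 0.016), vemurafenib one of 0.37 (SE 0.123, adjusted p = 0.018), and the combination one of -0.41 (SE 0.129, adjusted p = 0.012). The tretinoin call was lost without DMSO replicate 1 or 3, the vemurafenib call without DMSO replicate 2 or Vemurafenib replicate 3, and the combination call without Combination replicate 3. STARD4, a carrier of cholesterol between membranes, had 4.64, 4.46 and 3.64 CPM with DMSO, 4.18, 4.13 and 2.96 CPM with tretinoin, 5.40, 5.87 and 5.71 CPM with vemurafenib, and 5.12, 4.74 and 4.39 CPM with the combination. It rose by 0.42 with vemurafenib (SE 0.158, adjusted p = 0.032) and did not pass otherwise. This call was lost without DMSO replicate 3 or Vemurafenib replicate 2 or 3, by DESeq2 and without the filter on low counts.

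Among the fatty acid genes ELOVL6 (ENSG00000170522.9, chr4:110045846-110199199, minus strand), which lengthens palmitate to stearate, rose with tretinoin. It had 44.4, 35.6 and 46.8 CPM with DMSO, 60.0, 56.8 and 55.5 CPM with tretinoin, 29.6, 31.1 and 28.0 CPM with vemurafenib, and 30.0, 34.6 and 31.1 CPM with the combination. The groups without vemurafenib and those with it did not overlap, and Tretinoin samples were above all others. Its log2 fold changes were 0.44 (SE 0.092, adjusted p = 0.0092) under tretinoin, -0.52 (SE 0.095, adjusted p = 0.00019) under vemurafenib and -0.41 (SE 0.094, adjusted p = 0.0014) under the combination. SCD, which puts the double bond into oleate and was likewise picked out, had 214, 217 and 234 CPM with DMSO and 304, 268 and 239.9 CPM with tretinoin. These groups did not overlap, but the log2 fold change of 0.29 (SE 0.088, adjusted p = 0.066) did not pass, and the other 6 fatty acid genes lay between -0.13 and 0.10.

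Vemurafenib against DMSO asks what inhibition of BRAF does alone. Of the 34 genes 11 rose, against 26.4% of all genes tested, and 9 fell, against 26.3% of all, and the median log2 fold change was 0.06 against 0.02. With library totals as the only scaling, which shifted the median of all genes by 0.194, the split was 17 higher and 3 lower. The falls of HMGCS1, FDPS, SQLE, NSDHL, SCAP and ACLY were then not called. Of all genes 39.3% were then higher and 15.7% lower. Without Vemurafenib replicate 3, 7 rose and 10 fell, against 23.5% and 23.7% of all genes. By role, 3 mevalonate genes rose and 2 fell, 2 genes from squalene to cholesterol rose and 3 fell, and 2 fatty acid genes rose and 3 fell. Of SREBP control 2 genes rose and 1 fell, and both genes of sterol handling rose.

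In the mevalonate pathway MVK and MVD rose by 0.38 (SE 0.085, adjusted p = 0.0011) and 0.25 (SE 0.092, adjusted p = 0.031) with vemurafenib. The MVK call was kept in every alternative. The MVD call was lost without DMSO replicate 1 or 3 or Vemurafenib replicate 1 or 3, by DESeq2 (adjusted p = 0.052), without the filter on low counts (adjusted p = 0.13) and with the replicate block (adjusted p = 0.052). MVK lay at 14.2 to 15.8 CPM with tretinoin, 18.4 to 19.8 CPM with DMSO and 23.2 to 25.9 CPM with vemurafenib, and MVD at 16.1 to 19.8, 21.5 to 23.5 and 25.7 to 27.9 CPM in the same order. For both genes these 3 groups were apart. Both drugs were compared with the same 3 DMSO samples, so the opposite signs are not independent of each other. GGPS1, which makes the geranylgeranyl group attached to small GTPases, rose by 0.21 (SE 0.071, adjusted p = 0.021), and FDPS, the farnesyl diphosphate synthase, fell by 0.25 (SE 0.080, adjusted p = 0.013). The GGPS1 call was lost without DMSO replicate 1 or 3 or Vemurafenib replicate 1 or 2, and without the filter on low counts.

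In the block from squalene to cholesterol TM7SF2 (ENSG00000149809.14, chr11:65111845-65116384, plus strand), a sterol reductase, had 3.09, 2.30 and 3.32 CPM with DMSO, 2.79, 2.67 and 3.45 CPM with tretinoin, 5.14, 5.58 and 4.93 CPM with vemurafenib, and 5.39, 5.81 and 4.53 CPM with the combination. All 6 samples with vemurafenib lay above all 6 without it. TM7SF2 rose by 0.83 (SE 0.174, adjusted p = 0.00063) with vemurafenib and by 0.84 (SE 0.173, adjusted p = 0.00055) with the combination. CYP51A1 had 1.998, 3.04 and 2.90 CPM with DMSO, 1.69, 1.80 and 1.64 CPM with tretinoin, 1.558, 1.64 and 1.502 CPM with vemurafenib, and 1.16, 0.929 and 1.40 CPM with the combination. The DMSO samples lay above all others, and the Combination samples lay below all others. CYP51A1 fell by 0.76 (SE 0.226, adjusted p = 0.0094) with vemurafenib and by 1.18 (SE 0.233, adjusted p = 0.00036) with the combination, on 20 to 55 counts per sample from the exon parts that no other gene covers. SQLE, the squalene epoxidase, and NSDHL, a sterol dehydrogenase, fell by 0.36 (SE 0.084, adjusted p = 0.0017) and 0.31 (SE 0.1, adjusted p = 0.013) with vemurafenib. Both calls were lost with library totals as the only scaling, and that of NSDHL also without DMSO replicate 2. FDFT1, the squalene synthase, rose by 0.20 (SE 0.064, adjusted p = 0.014). The FDFT1 call was lost without DMSO replicate 1 or 3 or Vemurafenib replicate 3, and without the filter on low counts.

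The 2 most abundant fatty acid genes fell with vemurafenib. FASN (ENSG00000169710.8, chr17:82078333-82098332, minus strand) had 584, 616.5 and 619.6 CPM with DMSO, 647, 579.9 and 542 CPM with tretinoin, 437, 444 and 449.9 CPM with vemurafenib, and 403, 397.5 and 433 CPM with the combination. The samples with vemurafenib all lay below those without it. FASN fell by 0.45 (SE 0.072, adjusted p = 4.9e-05) with vemurafenib and by 0.56 (SE 0.072, adjusted p = 4.3e-06) with the combination, to a level of 0.678 of DMSO. ACLY fell by 0.31 (SE 0.077, adjusted p = 0.003), whereas SCD and FADS2, a desaturase of polyunsaturated fatty acids, rose by 0.31 (SE 0.088, adjusted p = 0.0065) and 0.28 (SE 0.105, adjusted p = 0.033). The SCD call was kept in every alternative, and that of FADS2 was lost without DMSO replicate 1 or 2 or Vemurafenib replicate 1 or 3, by DESeq2, without the filter and with the replicate block. ACACA, the carboxylase that makes malonyl-CoA, was at 0.07 (SE 0.076, adjusted p = 0.44), and ACSS2, which activates acetate, at -0.15 (SE 0.096, adjusted p = 0.19).

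**Figure D3:**
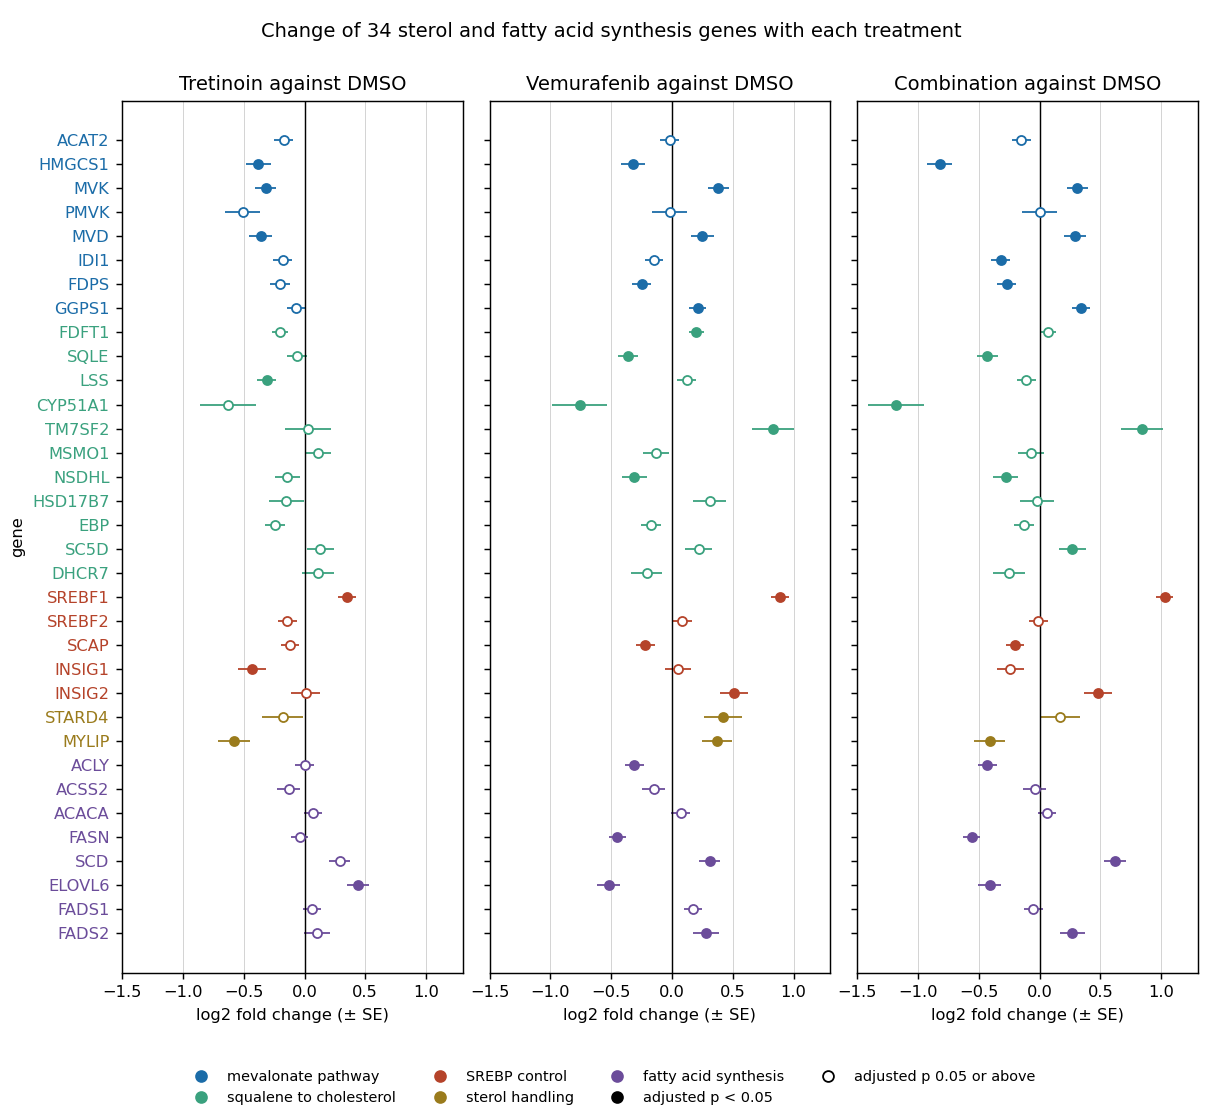
Log2 fold change of each gene against DMSO (points; bars, SE) for tretinoin, vemurafenib and the combination, filled where the adjusted p was below 0.05, with names coloured by role. Filled points number 8, 20 and 20 of 34, and the mevalonate genes all lie left of 0 with tretinoin but on both sides with vemurafenib. Of all genes tested, 3.48% rose and 2.2% fell with tretinoin, and 26.4% and 26.3% with vemurafenib. With the combination it was 27.1% and 26.5%.

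Under the combination 9 of the 34 genes rose relative to DMSO, against 27.1% of all genes tested, and 11 fell, against 26.5% of all. Their median log2 fold change was -0.06, against 0.03 over all genes. With library totals as the only scaling, 11 rose and 5 fell, against 37.3% and 17.4% of all genes. The largest rises were those of SREBF1, TM7SF2 and SCD (0.62, SE 0.088, adjusted p = 1.4e-05), and the largest falls those of CYP51A1, HMGCS1 and FASN. IDI1, the isopentenyl diphosphate isomerase, fell by 0.32 (SE 0.076, adjusted p = 0.0019), and SC5D, a sterol desaturase, rose by 0.27 (SE 0.111, adjusted p = 0.046). The SC5D groups overlapped, and its call was kept in 4 of the 12 fits that left out a sample. The falls of IDI1, FDPS, NSDHL, SCAP, MYLIP and ELOVL6 were not called with library totals as the only scaling. Neither IDI1 nor SC5D passed with vemurafenib alone (adjusted p = 0.11 for each), and for neither did the combination differ from vemurafenib by the test (adjusted p = 0.31 and 0.91). The 10 genes called in none of the comparisons with DMSO were ACAT2, PMVK, MSMO1, HSD17B7, EBP, DHCR7, SREBF2, ACSS2, ACACA and FADS1.

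Comparing the combination with vemurafenib alone asks what tretinoin added, on the assumption that vemurafenib was at the same dose in both groups. The labels give 1 dose for the Combination group and do not say whether it holds for each drug, which bears equally on the comparison with tretinoin alone and on the interaction. None of the 34 genes rose, against 2.27% of all genes tested, and 2 fell, against 2.2% of all. They were MYLIP, by 0.78 (SE 0.124, adjusted p = 0.00064), and HMGCS1, by 0.50 (SE 0.103, adjusted p = 0.0069), and for both every Combination sample lay below every Vemurafenib sample. Both calls were kept in all 12 fits that left out a sample and in the 7 other alternatives. By unadjusted p under 0.05, 8 of the 34 differed, against 2375 of all 16740 genes tested. DESeq2's Wald test called 1 gene higher, SCD, and the same 2 lower, against 2.16% and 2.41% of all genes. Tretinoin replicate 1 is in neither group but enters the shared estimate of the spread. Without it 4 were lower and 1 higher, against 3.7% and 3.14% of all genes.

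Comparing the combination with tretinoin alone asks what vemurafenib added. Here 10 of the 34 genes rose, against 24.1% of all genes tested, and 6 fell, against 25.0% of all. ELOVL6 fell by 0.85 (SE 0.093, adjusted p = 7.7e-07), from 57.4 ± 2.35 to 31.9 ± 2.42 CPM (SD, n = 3 each). TM7SF2 rose by 0.81 (SE 0.172, adjusted p = 0.00081), SREBF1 by 0.68 (SE 0.071, adjusted p = 4.6e-07), MVD by 0.65 (SE 0.094, adjusted p = 1.7e-05) and MVK by 0.63 (SE 0.087, adjusted p = 1.1e-05). DHCR7, the last enzyme of one branch to cholesterol, fell by 0.37 (SE 0.129, adjusted p = 0.025), but the call was lost without Tretinoin replicate 1 or Combination replicate 1 (at -0.20), with library totals as the only scaling and with only the groups compared.

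The interaction asks whether the effect of tretinoin differed in the presence of vemurafenib, and is the log2 difference of Combination from Vemurafenib minus that of Tretinoin from DMSO. None of the 34 genes passed in either direction, where 0.382% of all genes tested were positive and 0.424% negative in edgeR's test. By unadjusted p under 0.05 it was 6 genes in edgeR, against 2619 of all 16740 genes tested, and 6 in DESeq2. DESeq2 also called none, and the lowest adjusted p was 0.17 in edgeR and 0.15 in DESeq2. These 6 were PMVK at 0.52 (SE 0.205), MVD at 0.41 (SE 0.132), EBP at 0.27 (SE 0.115), SREBF1 at -0.21 (SE 0.101), FADS1 at -0.28 (SE 0.106) and ELOVL6 at -0.33 (SE 0.132). Without Tretinoin replicate 1 the value of PMVK was 0.31 (SE 0.119, adjusted p = 0.22).

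**Figure D4:**
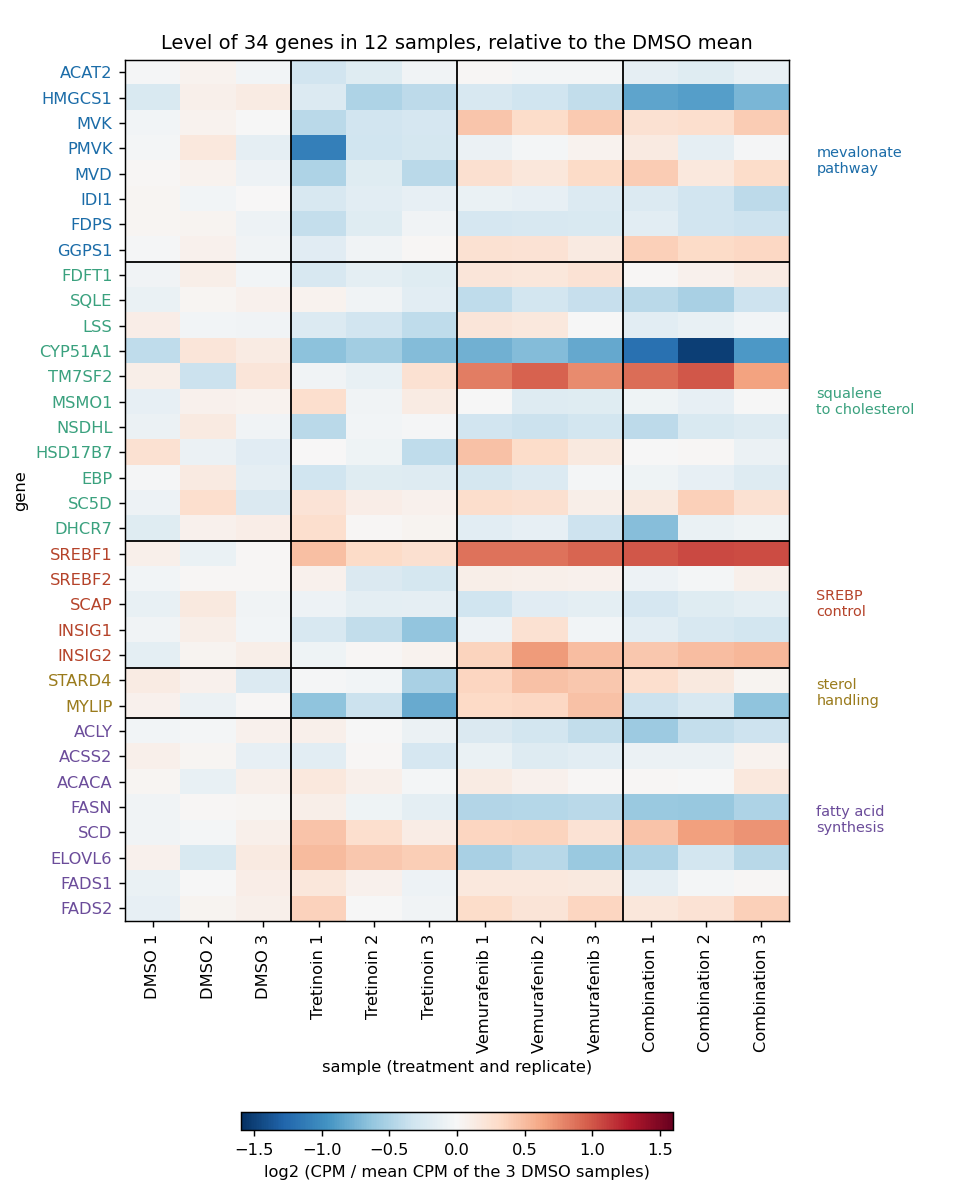
Log2 ratio of the CPM of each gene in each sample to the mean of the 3 DMSO samples (colour; white is 0), with genes in rows by role and the 12 samples in columns by treatment. SREBF1, TM7SF2 and INSIG2 are red and FASN and HMGCS1 blue in the 6 samples with vemurafenib, and the row of PMVK is darkest in Tretinoin replicate 1, at 26.3 CPM.

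Genes around the pathway were read from lists of their own, and their counts stand against the shares of all genes tested, 26.4% higher and 26.3% lower with vemurafenib and 3.48% and 2.2% with tretinoin. The counts are a description, and nothing particular to a list is read from them. Whether calls of single genes in these lists are kept under the alternatives was not examined. Of 9 genes of SREBP processing and of sterol-induced degradation, 1 rose and 2 fell with vemurafenib and none passed with tretinoin in edgeR's test. With tretinoin 0 of the 9 had an unadjusted p under 0.05, beside 3915 of all 16740 genes tested. With vemurafenib ERLIN2, a scaffold of that degradation, rose by 0.62 (adjusted p = 4.4e-05), and PAQR3, a Golgi anchor of SCAP, fell by 0.60 (adjusted p = 5.2e-05). In the isoprenoid branch none of 10 genes rose and 4 fell with vemurafenib. They were PDSS1 (-0.70) of ubiquinone synthesis, NUS1 (-0.70) of dolichol synthesis, and the prenyltransferase subunits RABGGTB (-0.54) and PGGT1B (-0.28). Their adjusted p was at most 0.0055. With tretinoin none of the 10 passed in edgeR's test. An unadjusted p under 0.05 was found for 3 of them, beside 3915 of all 16740 genes tested.

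ABCA1, which exports cholesterol to lipoproteins, rose with both drugs. Again beside 26.4% of all genes higher and 26.3% lower with vemurafenib, and 3.48% higher with tretinoin, of 6 LXR genes, which share ABCA1 and ABCG1 with the list of sterol transport, 2 rose with tretinoin and 4 rose and 1 fell with vemurafenib. It had 2.38, 2.36 and 2.43 CPM with DMSO, 5.06, 4.07 and 3.83 CPM with tretinoin, 6.02, 5.82 and 5.77 CPM with vemurafenib, and 7.98, 8.69 and 9.78 CPM with the combination. The 4 groups did not overlap, with log2 fold changes against DMSO of 0.84 (adjusted p = 0.0058), 1.29 (adjusted p = 2.2e-06) and 1.88 (adjusted p = 1.1e-08). LPCAT3, an acyltransferase of membrane lipids, rose by 0.53 with tretinoin (adjusted p = 0.028), where MYLIP, of the same known regulators, was at -0.58. LPCAT3 was highest in Tretinoin replicate 1, at 17.6 CPM against 13.3 CPM in replicates 2 and 3. ABCG1 rose by 1.62 with vemurafenib (adjusted p = 5.3e-05). Of the 12 genes of sterol transport and esters, 3 rose with tretinoin, ABCA1, NPC2 (0.30) and LIPA (0.29), and 6 rose and 4 fell with vemurafenib. TMEM97, a regulator of the sterol carrier NPC1, fell by 0.62 (adjusted p = 4.4e-05).

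The lists of genes that use fatty acids are set beside the same 26.4% of all genes higher and 26.3% lower with vemurafenib. Of 18 tested genes of fatty acid elongation and activation, 1 rose with tretinoin, and 6 rose and 7 fell with vemurafenib. ACSL3, which activates fatty acids to acyl-CoA, rose by 0.71 with tretinoin (adjusted p = 3.9e-06) and fell by 0.77 with vemurafenib (adjusted p = 3.5e-08), with 155 to 169.8, 256 to 276 and 91.4 to 99.9 CPM in the DMSO, Tretinoin and Vemurafenib samples. ACACB, the carboxylase whose malonyl-CoA holds back fatty acid import into mitochondria, rose by 0.89 with vemurafenib (adjusted p = 1.1e-05), beside 0.07 for ACACA. Of 11 glycerolipid genes, 1 rose with tretinoin, LPIN2 by 0.66 (adjusted p = 0.00011), and 6 rose and 2 fell with vemurafenib, led by the phosphatidate phosphatase LPIN1 (0.97, adjusted p = 1.4e-07) and the lipase PNPLA3 (-0.89, adjusted p = 0.00038). Of 15 genes of fatty acid oxidation, 6 rose and none fell with vemurafenib in edgeR's test. At an unadjusted p under 0.05 it was 8 of them, beside 9691 of all 16740 genes tested. The dehydrogenase ACADS rose most, by 1.04 (adjusted p = 1.1e-06), followed by the carnitine transferase CPT2, by 0.49 (adjusted p = 0.00048). With tretinoin 1 of these 15 rose, CPT1A by 0.28 (adjusted p = 0.027), and 1 fell, ETFB by 0.44 (adjusted p = 0.044). ETFB was lowest in Tretinoin replicate 1, at 20.8 CPM against 26.6 and 28.5 CPM in replicates 2 and 3.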

How the data were processed

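RNA of 12 A375 samples, 3 per group, was sequenced after poly(A) selection with strand-specific libraries. The authors aligned reads with STAR 2.5.3a to GRCh38.p10 and counted them per gene of GENCODE 27 in union mode, ignoring strand, and deposited the raw counts. Symbols, positions and exon lengths were taken from GENCODE 29, which held 58039 of the 58347 gene IDs. The 34 genes, the other lists and the genes named were chosen with earlier results of these data known.

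Counts were filtered with filterByExpr, scaled by TMM and tested with edgeR 4.0.16 (R 4.3.3), with a quasi-likelihood fit of all 12 samples by group and Benjamini-Hochberg adjustment over 16740 genes (threshold 0.05). Tests are two-sided. The SE is the size of the log2 fold change divided by the square root of F. All members are named. Every sample's value is given for the 3 called members that rose and the 3 that fell most with tretinoin, with vemurafenib and in the combination against vemurafenib, for SREBP control, and for MYLIP and STARD4. At most the 4 called genes with the largest changes are named of each other list. Alternatives were DESeq2 1.42.0, DESeq2 size factors, library totals only, no filter on low counts, at least 10 counts in every sample, a block for the replicate number, fits restricted to the groups being compared, and fits without each sample in turn. Shared stretches were found with blastn 2.17.0. Total counts of 13510235 to 21534377 per sample limit low genes such as CYP51A1. No row of the files lacked a gene name.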

Additional observations from a re-analysis of the deposited data

Results flagged for a closer look

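LPIN2, a phosphatidate phosphatase of the glycerolipid list, was the one gene of the lists whose response to tretinoin differed with and without vemurafenib by the test of the difference itself. The lists, with the 34 genes included, named 147 genes, some of which did not pass the filter on low counts. Of all genes tested 0.382% were positive and 0.424% negative in that test. The single call is a description, and nothing particular to the lists is read from it. LPIN2 had 27.4, 26.4 and 27.6 CPM with DMSO, 47.8, 42.7 and 38.6 CPM with tretinoin, 27.3, 25.9 and 26.7 CPM with vemurafenib, and 23.2, 26.8 and 24.7 CPM with the combination. The Tretinoin samples lay above all others, and Tretinoin replicate 1, which stood apart, was the highest. Whether the LPIN2 call is kept under the alternatives, such as without that replicate, was not examined. The log2 fold change with tretinoin was 0.66 without vemurafenib and -0.10 (adjusted p = 0.72) in its presence, a difference of -0.76 (SE 0.122, adjusted p = 0.0057, edgeR's quasi-likelihood test).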

How the results depend on the processing

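The 66 called values of the 34 genes had 1254 values under the alternatives, of which 1106 kept direction and call, 148 kept direction without the call and 0 changed direction. Of 2588 values of genes not called, 139 had another sign and 55 were called, with none of these in another direction. Library totals as the only scaling shifted the median of all genes by 0.071 (tretinoin), 0.194 (vemurafenib) and 0.162 (combination) against DMSO, by -0.103 in the interaction, and called 1 gene lower with tretinoin, 17 higher and 3 lower with vemurafenib and 5 lower with the combination. Of all genes, that scaling called 1.04% lower with tretinoin, 39.3% higher and 15.7% lower with vemurafenib, and 17.4% lower with the combination. With only the groups compared, 0 were higher and 0 lower with tretinoin, and 1 was higher and 4 lower in the combination against vemurafenib. For the latter 3.58% of all genes were higher and 4.2% lower. In that comparison 1 was higher by DESeq2, with at least 10 counts in every sample, and without the filter. The shares of all genes there were 2.16%, 2.56% and 0.981%. Without the filter 6 rose with vemurafenib and 1 (PMVK) had a positive interaction, against 10% and 0.93% of all genes. Leaving out single samples gave 0 to 3 higher and 1 to 6 lower with tretinoin, 7 to 13 and 7 to 10 with vemurafenib, 7 to 9 and 9 to 12 with the combination, 0 to 1 and 2 to 4 against vemurafenib, 9 to 12 and 5 to 7 against tretinoin, and 0 in the interaction. The count lower with tretinoin was 3 without Tretinoin replicate 2, Vemurafenib replicate 1 or 2, or Combination replicate 2. The interaction was not run with only the groups compared, since it uses all 4. Apart from what is stated by construction, the cause was not tested.

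Same-numbered replicates did not deviate together (18 pairs, mean correlation -0.0312, range -0.143 to 0.0872). No deviation common to a replicate number was thus seen, but the labels do not say what the number stands for. With the replicate block 3 genes were lower with tretinoin. The other counts stayed within 1.5 times, at 2 higher with tretinoin, 10 higher and 9 lower with vemurafenib, and 8 higher and 11 lower with the combination. Of all genes, the block called 2.56% higher and 1.31% lower with tretinoin, 25.2% and 25.1% with vemurafenib, and 25.8% and 25.4% with the combination.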
